A study of Mus musculus with 6 samples.

Results

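The Myc, Max and Mxd network is a set of transcription factor genes whose 9 members here were taken by name: Myc, Mycn, Max, Mxi1, Mxd1, Mxd3, Mxd4, Mnt and Mlx. They were 9 of 18194 genes that the array annotation names alone on a probe set, and 21 probe sets represented them. RNA came from neurospheres, floating spheres of dividing cells, of C57BL/6J mice. The rNCSC group held 3 arrays of neurospheres grown from the sensory ganglia (dorsal root ganglia) of embryos at day 12.5. Per the labels these cells had been reprogrammed in culture and can give rise to central nervous system (CNS) progeny. The pNCSC group held 3 arrays of neurospheres grown from the palate of mice 6 to 8 weeks old, dissected from 3 to 5 mice. Both were taken at passage 3 from serum-free medium with EGF at 20 ng/ml, heparin, N2, B27 and basic fibroblast growth factor, the last given as 20 or 40 ng/ml without saying which culture received which. Donor age, tissue and culture change together between the groups and cannot be told apart. Whether replicate arrays are separate cultures is not stated. The p-values therefore reflect array-to-array spread alone, and that spread may be technical.

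The proteins of this network bind DNA as pairs. Myc and its paralogues pair with Max and bind the E-box sequence, where they activate genes of ribosome building, metabolism and cell division. Mxd proteins, Mxi1 and Mnt pair with the same Max protein, bind the same sequence and recruit the Sin3 and histone deacetylase corepressor. Mlx pairs with Mxd1, Mxd4 and Mnt and also with the glucose-responsive Mondo proteins, which links the network to metabolism. In neural development Myc and Mycn are known for sustaining progenitor division, and Myc is also expressed in the early neural crest.

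Values below are the deposited log2 values, on which a difference of 1 is a 2-fold difference. A gene was tested, on its probe set with the highest mean, if it reached 4 on at least 3 arrays, and 8 of the 9 members did. Of these, 2 were called higher in rNCSC, Myc and Mxd3, and 2 were called lower, Mxd4 and Mnt (limma, Benjamini-Hochberg adjusted p under 0.05). Max, Mxi1, Mxd1 and Mlx were tested and not called, and Mycn was too dim to test. The cultures differed widely: 73.3% of all 11722 genes tested were called, 40.2% higher and 33.1% lower in rNCSC, so 4 calls among 8 members are not above that background. For 5 of the 8 tested members no rNCSC value fell within the pNCSC range or the reverse, against 78.2% of all genes tested. On single probe sets, 15 of the 21 were tested, with 4 called higher and 7 lower in rNCSC, where 41.0% and 31.0% of all 24834 probe sets tested were called in these directions (72.0% in either). Of the 15, 12 had groups without overlap, against 77.0% of all probe sets tested. Both counts include an Mxd3 probe set (1422970_at) that entered the test only through the rNCSC arrays, where it is high.

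**Figure D1:**
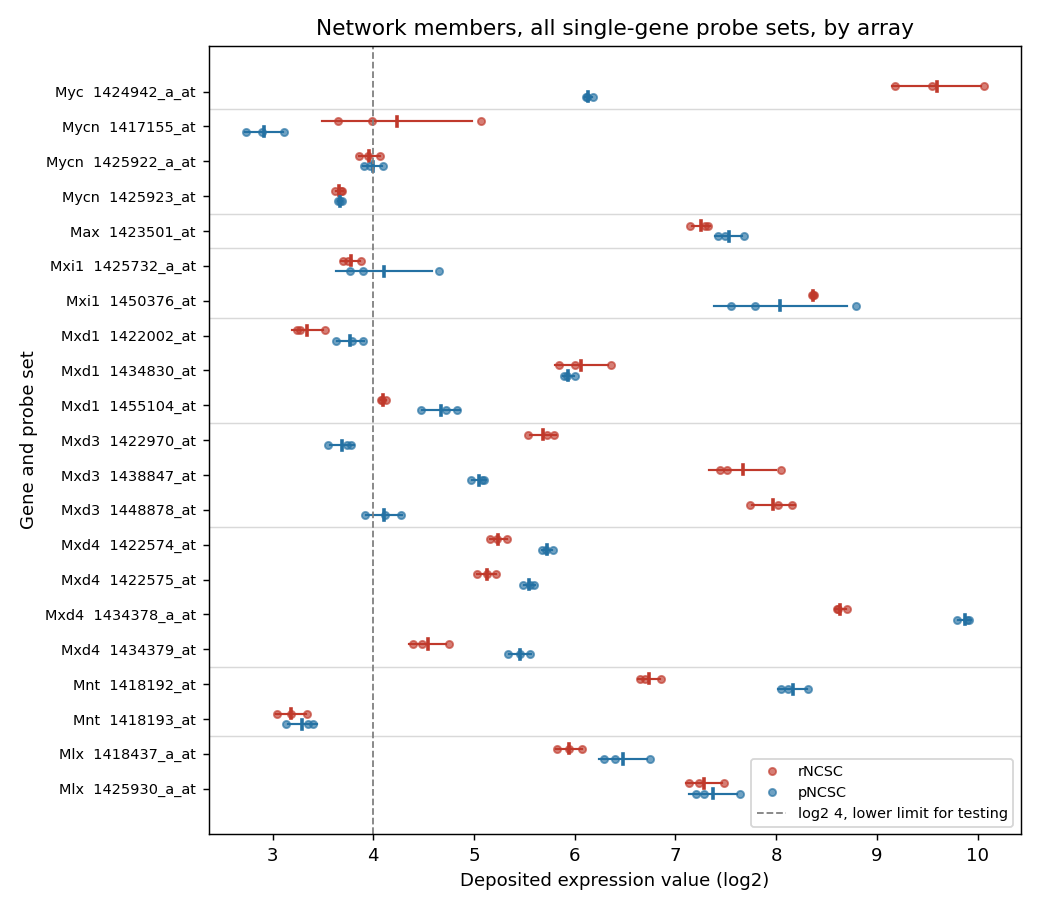
The log2 value on each of the 3 rNCSC (red) and 3 pNCSC (blue) arrays is plotted for the 21 probe sets of the 9 members, with the group mean (tick) and SD (bar); the dashed line marks log2 4. Myc and the 3 Mxd3 probe sets lie higher in rNCSC, and the 4 Mxd4 probe sets lie lower. The 3 Mycn probe sets lie near or below the line, apart from 1417155_at on rNCSC replicate 1 (5.07).

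Of the Myc paralogues, Myc itself, the broadly expressed activator of growth genes, was clearly above the limit in both cultures and higher in rNCSC. Myc had log2 values of 9.55, 9.18 and 10.06 on rNCSC replicates 1, 2 and 3, and of 6.12, 6.18 and 6.11 on pNCSC replicates 1, 2 and 3. Every rNCSC array lay above every pNCSC array, and the pNCSC values were almost equal. The means were 9.60 ± 0.44 (SD, n = 3) and 6.14 ± 0.04, a log2 difference of 3.46 (SE 0.22, limma adjusted p = 1.5e-05) or 11.0-fold. Myc has a single probe set here, so no second probe set checks this value.

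Mycn, the paralogue of embryonic neural progenitors, was not clearly detected. On the probe set with the highest mean (1425922_a_at) it had 4.07, 3.95 and 3.86 in rNCSC and 4.10, 3.91 and 3.97 in pNCSC. A second probe set (1425923_at) lay between 3.62 and 3.69 on all 6 arrays. The third (1417155_at) was at 5.07, 3.65 and 3.99 in rNCSC and 3.11, 2.74 and 2.90 in pNCSC. Only rNCSC replicate 1 reached 4 on that probe set, although all 3 rNCSC values lay above the pNCSC ones. No fold is given, because both groups were at or near the limit.

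The third paralogue, Mycl, is not among the 9 members and was taken from a list of other network genes. It was at 7.37, 7.09 and 7.85 in rNCSC and at 3.28, 3.19 and 3.20 in pNCSC. All rNCSC arrays were above the limit and all pNCSC arrays below it. With pNCSC arrays set to 4, Mycl was at least 10.8-fold higher in rNCSC (limma adjusted p = 3.7e-06). It entered the test only through the rNCSC arrays, where it is high, and leaves it when any of them is left out, so the call adds little to the bound. Its other probe sets (1422087_at and 1422088_at) were under 4 on all 6 arrays.

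Max, the shared partner of every Myc, Mxd and Mnt protein, was nearly level between the cultures. Its values were 7.32, 7.15 and 7.29 in rNCSC and 7.49, 7.68 and 7.42 in pNCSC. The groups did not overlap, but the difference of -0.28 was not called (SE 0.12, 95% interval -0.57 to 0.02, limma adjusted p = 0.079). That interval leaves room for no difference and for a level up to 0.57 lower in rNCSC on the log2 scale.

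The Mxd antagonists went different ways. Mxd3, the family member known to be expressed in dividing progenitors during S phase, was higher in rNCSC. On its probe set with the highest mean (1438847_at) Mxd3 had 7.51, 8.05 and 7.44 in rNCSC and 5.10, 4.97 and 5.08 in pNCSC. The groups were far apart, with a log2 difference of 2.61 (SE 0.18, limma adjusted p = 2.4e-05) or 6.12-fold. The other Mxd3 probe sets gave 7.74, 8.16 and 8.02 against 4.28, 3.92 and 4.12 (1448878_at, at least 14.3-fold), and 5.54, 5.79 and 5.73 against 3.55, 3.74 and 3.78 (1422970_at, at least 3.22-fold). All 3 probe sets of Mxd3 were called higher in rNCSC and differ in how far. The dimmest (1422970_at) was under 4 on all pNCSC arrays and entered the test only through rNCSC. Its call therefore adds little to its bound.

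Mxd4, a member associated with cells leaving the cycle, was lower in rNCSC on all 4 of its probe sets. The brightest (1434378_a_at) was at 8.70, 8.60 and 8.61 in rNCSC and at 9.90, 9.80 and 9.92 in pNCSC. The arrays of each group lay close together, and the log2 difference was -1.24 (SE 0.10, limma adjusted p = 5.5e-05), 2.36-fold higher in pNCSC. On the other 3 the differences were -0.91, -0.48 and -0.42 (adjusted p = 0.00082, 0.0053 and 0.011 over all probe sets). The brightest probe set thus shows the largest of the 4 differences.

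Mnt, the most widely expressed Max partner among the repressors, had 6.65, 6.70 and 6.86 in rNCSC and 8.05, 8.12 and 8.32 in pNCSC. No arrays overlapped, and Mnt was 2.69-fold higher in pNCSC (log2 difference -1.43, SE 0.13, limma adjusted p = 7e-05). Its other probe set (1418193_at) was under 4 on all arrays, from 3.04 to 3.40, and was not tested.

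Mxd1, a repressor induced in differentiating cells, gave probe sets that disagree on a call. On the brightest (1434830_at) it was at 6.00, 5.84 and 6.36 in rNCSC and 6.00, 5.89 and 5.92 in pNCSC, groups that overlap, with a difference of 0.13 (SE 0.16, 95% interval -0.25 to 0.50, limma adjusted p = 0.48). Without rNCSC replicate 3 that difference was -0.02. On a second (1455104_at) it was at 4.13, 4.09 and 4.08 in rNCSC and 4.83, 4.47 and 4.72 in pNCSC, called lower in rNCSC by -0.57 (SE 0.13, adjusted p = 0.0055 over all probe sets). The third (1422002_at) was under 4 on all arrays and not tested, at 3.27, 3.52 and 3.24 against 3.63, 3.79 and 3.90. Whether Mxd1 is called therefore depends on the probe set, and the brightest sets no direction. With the mean of the Mxd1 probe sets the difference was -0.29 (limma adjusted p = 0.021).

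Mxi1, a tumour suppressor relative of the Mxd genes, was steady in rNCSC and uneven in pNCSC. Its values (1450376_at) were 8.38, 8.36 and 8.37 in rNCSC and 8.79, 7.55 and 7.79 in pNCSC. Replicate 1 of pNCSC was above all rNCSC arrays and the other pNCSC arrays were below them, so the groups overlap, and the difference of 0.33 was not called (SE 0.31, 95% interval -0.41 to 1.08, limma adjusted p = 0.37). Without pNCSC replicate 1 it was 0.70 (limma adjusted p = 0.0031). The dimmer Mxi1 probe set (1425732_a_at) also had its highest value, 4.65, on that array, and lay between 3.70 and 3.90 on the others. The same array held the fewest mast cell transcripts of the 3, with a summed linear level of 205 over 9 marker genes against 2088 and 5607 on pNCSC replicates 2 and 3. The summed macrophage and leukocyte level was also highest there, 3208 over 10 genes against 1352 and 1208, carried mainly by Cd14 (11.19 against 9.10 and 9.34), while Trem2 was highest on replicate 2 (8.02, 9.19 and 7.93). On pNCSC replicate 1 the mesenchyme and fibroblast sum (87786 against 69352 and 74409) and the neuron sum (1713 against 732 and 1201) were also highest. The epithelial sum (383 against 1064 and 973) and the endothelial and mural sum (24000 against 26463 and 29803) were lowest there. Its CNS progenitor, neural crest and cell cycle sums lay between those of replicates 2 and 3. The part of these cell types in the Mxi1 values was not tested.

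Mlx, the bridge to the Mondo proteins, was not called on its brighter probe set (1425930_a_at), at 7.48, 7.14 and 7.23 in rNCSC and 7.28, 7.64 and 7.20 in pNCSC. These overlap, with a difference of -0.09 (SE 0.16, 95% interval -0.48 to 0.30, limma adjusted p = 0.63), and without pNCSC replicate 2 it was 0.04. The other probe set (1418437_a_at) was at 6.07, 5.82 and 5.94 against 6.40, 6.75 and 6.29 and was called lower in rNCSC (-0.53, SE 0.15, adjusted p = 0.017 over all probe sets). Leaving out rNCSC replicate 2 or rNCSC replicate 3 ended that call (adjusted p = 0.057 and 0.052). Both Mlx probe sets carry the ending that marks several transcripts of 1 gene.

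Of the partners outside the 9 members, Mlxip, which encodes MondoA, was at 5.25, 5.24 and 5.16 in rNCSC and 6.81, 6.34 and 6.15 in pNCSC. It was 2.32-fold higher in pNCSC with no overlap (log2 difference -1.22, SE 0.18, limma adjusted p = 0.00093). Mlxipl, which encodes the liver and fat factor ChREBP, was under 4 on all 6 arrays. Mga, a large Max partner of a repressive chromatin complex, was at 9.31, 9.21 and 9.09 against 9.37, 9.26 and 9.58 and was not called (-0.20, SE 0.13, limma adjusted p = 0.22). A dimmer Mga probe set (1442356_at) was called lower in rNCSC (-0.56, limma adjusted p = 0.0027 over all probe sets). It was at 3.58, 3.69 and 3.78 in rNCSC and 4.21, 4.22 and 4.31 in pNCSC. That probe set entered the test only through pNCSC and was near the limit, so its call adds little.

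**Figure D2:**
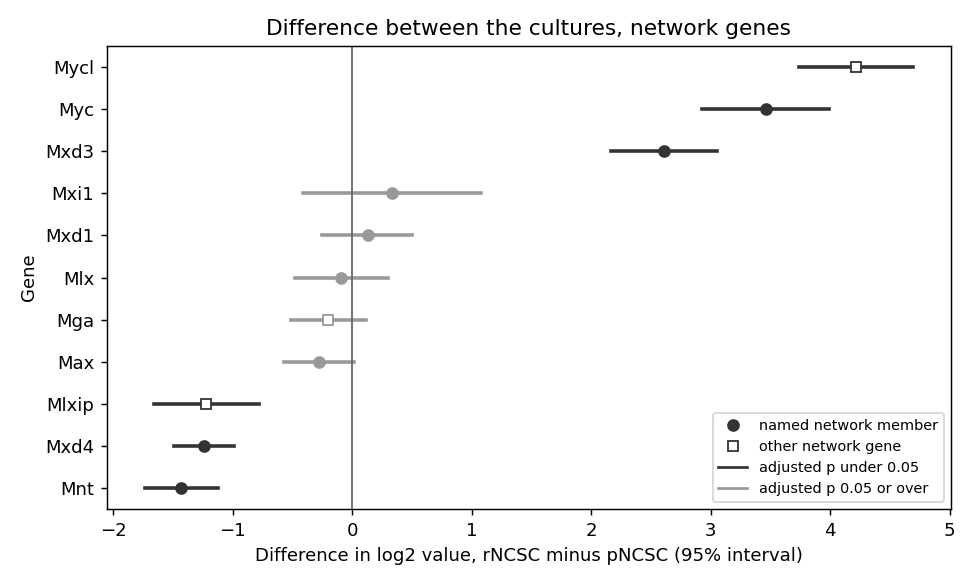
Points give the difference in log2 value, rNCSC minus pNCSC, with its 95% interval, for the 8 tested members (circles) and 3 other network genes (squares), black where called and grey where not. Mycl, Myc and Mxd3 lie at 2.61 or above (Mycl against pNCSC arrays below the limit of 4, so its fold is only a lower bound), Mlxip, Mxd4 and Mnt lie at -1.22 or below, and the intervals of the other 5 genes include 0.

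The members' promoters were searched for the E-box CACGTG, the sequence that Myc and Max pairs bind and that reads the same on both strands. The windows, from RefSeq on GRCm38.p6, run from 250 bases before to 50 bases after a transcript start. At least 1 window was found for 8 members (10 in all, 3 of them for Mxi1). Myc had no window and was not searched, so of the members called higher in rNCSC only Mxd3 was. An E-box was found for 4 members: Mxd4, Mnt, Mlx and Max. Of all 32851 windows of this length, 7.15% held it, and of tested genes with a window, 11.8%. On the probe sets used for the gene test, all 4 had a difference below 0. It was -1.24 for Mxd4, -1.43 for Mnt, -0.09 for Mlx and -0.28 for Max. Only the Mxd4 and Mnt differences were called, and that of Mlx turned sign (0.04) without pNCSC replicate 2. The stretches are shown because these 4 include both members called lower in rNCSC. Each is given 5′ to 3′ on the strand of the gene, with the E-box in capitals and up to 60 bases on either side, ending at most 3 bases after the start.
Mxd4, chr5:34187864-34187960, minus strand: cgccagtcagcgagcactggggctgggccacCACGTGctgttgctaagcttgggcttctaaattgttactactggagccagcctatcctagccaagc
Mnt, chr11:74830741-74830866, plus strand: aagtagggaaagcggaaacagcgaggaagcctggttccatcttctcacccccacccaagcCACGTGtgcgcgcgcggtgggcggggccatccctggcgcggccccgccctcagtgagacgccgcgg
Mlx, chr11:101087190-101087292, plus strand: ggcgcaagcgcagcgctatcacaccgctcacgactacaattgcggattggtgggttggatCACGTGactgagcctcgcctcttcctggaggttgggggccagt
Max, chr12:76962246-76962311, minus strand: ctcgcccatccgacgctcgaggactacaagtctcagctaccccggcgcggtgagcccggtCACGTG

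The E-box begins 219 bases before the start in Mxd4, 123 before it in Mnt and 40 before it in Mlx, and spans the start in Max, from 3 bases before it. In the windows of Mxd3, Mxd1, Mxi1 and Mycn these letters were not found. Of the 4 other network genes, 1 (25%) had an E-box, Mlxipl, which was too dim to test. None was found for Mlxip (log2 difference -1.22, called lower in rNCSC), Mga (-0.2, not called) or Mycl (4.22, called higher). An E2F motif, searched as TTTCCCGC, TTTCGCGC, TTTGCCGC or TTTGGCGC on both strands, was found in the window of 1 member, Mycn, at 3 places that begin 183, 179 and 168 bases before the start, of which the first pair overlap. Of all windows, 2.26% held an E2F motif. A match of letters is a description and no measurement of binding, and across all tested genes with a window the median log2 difference was 0.10 with an E-box and 0.14 without.

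**Figure D3:**
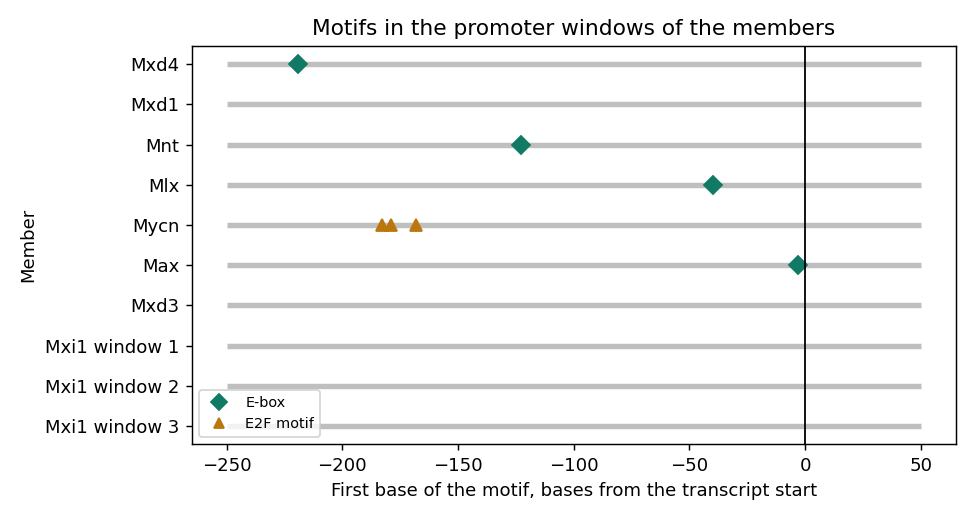
Grey bars are the 10 promoter windows of 8 members, from 250 bases before to 50 bases after the transcript start, with the first base of each E-box (diamond) and E2F motif (triangle). An E-box lies in the windows of Mxd4, Mnt, Mlx and Max, and 3 E2F matches lie in that of Mycn.

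The corepressor that Mxd and Mnt proteins recruit was present in both cultures. Of 13 tested Sin3 and Hdac complex genes, 7 (53.8%) were called higher in rNCSC and 0 lower, with 6 not called. Of all genes tested, 40.2% were called higher and 33.1% lower. The median log2 difference of the 13 was 0.32, against 0.12 over all genes tested. At an unadjusted p under 0.05 limma also found 0 lower, and 1 was called lower with the most variable probe set of each gene or with probe sets of plain endings. Sap30, a Sin3-associated protein gene, was 3.13-fold higher in rNCSC (11.57, 11.09 and 11.24 against 9.78, 9.73 and 9.45, limma adjusted p = 0.00013). Ing2, a chromatin reader of the complex, was 2.76-fold and the deacetylase gene Hdac2 2.25-fold higher. The scaffold genes themselves were not called: Sin3a differed by 0.25 (SE 0.11, limma adjusted p = 0.088) and Sin3b by 0.13 (SE 0.12, limma adjusted p = 0.37).

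On the activating side, 9 of 15 tested Myc coactivator genes were called higher in rNCSC and 0 lower. Over all genes tested, 40.2% were called higher and 33.1% lower. The median log2 difference of the 15 was 0.67, against 0.12 over all genes tested. At an unadjusted p under 0.05 limma found 1 of the 15 lower, the acetyltransferase gene Ep300 (-0.32). Actl6a, an actin-related subunit of chromatin complexes, was 3.36-fold higher (11.72, 11.67 and 11.67 against 10.04, 9.67 and 10.10, limma adjusted p = 4.9e-05). Ruvbl2, a helicase-like ATPase of the same complexes, was 3.28-fold and the bromodomain gene Brd8 2.97-fold higher. Trrap, the large scaffold that Myc contacts directly, had a difference of 0.08 and was not called (chosen after its values were seen).

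Among 22 tested genes of Myc partners and turnover, 11 were called higher and 4 (18.2%) lower in rNCSC, with a median log2 difference of 0.36, against 40.2% higher and 33.1% lower over all genes tested. Skp2, a ubiquitin ligase subunit that acts on Myc and on cell cycle inhibitors, was at 11.22, 11.31 and 11.41 in rNCSC and 6.61, 6.73 and 6.70 in pNCSC, 24.8-fold higher (limma adjusted p = 2.1e-07). For the mitotic kinase genes Aurka and Plk1 the rNCSC level was at least 37.1-fold and 36.1-fold that of pNCSC. Plk1 was under 4 on all pNCSC arrays and entered the test only through rNCSC. Fbxw7, the ligase subunit that marks phosphorylated Myc for degradation, was 3.41-fold higher (limma adjusted p = 0.00016, chosen after its values were seen). The 4 lower genes were Bin1, a Myc-interacting adaptor (2.16-fold higher in pNCSC), Huwe1, a large ubiquitin ligase (1.98-fold), Mycbp (1.86-fold) and Axin1. The Huwe1 call was lost without rNCSC replicate 1 or 2 or pNCSC replicate 3 (limma adjusted p = 0.058, 0.052 and 0.054), and a second probe set each of Huwe1 (0.42) and of Bin1 (0.22) pointed the other way and was not called.

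Genes known to be induced by Myc were then described in 2 lists. Of 23 tested ribosome and nucleolus genes, 16 (69.6%) were called higher in rNCSC and 0 lower, against 40.2% and 33.1% of all genes tested. At an unadjusted p under 0.05 in limma 0 were lower too, and the median log2 difference was 0.88. Nop56, a core protein of nucleolar guide RNA particles, was at 11.49, 11.50 and 11.51 in rNCSC and 8.88, 9.69 and 9.44 in pNCSC, 4.46-fold higher (limma adjusted p = 0.00011). Wdr12, needed for large ribosomal subunit assembly, was 4.23-fold higher, and Dkc1, the pseudouridine synthase dyskerin, 3.85-fold. Nucleolin (Ncl), a textbook Myc target chosen here after its values were seen, was 1.84-fold higher, at 13.69, 13.70 and 13.69 against 12.74, 12.85 and 12.85 (limma adjusted p = 0.00025).

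Of 32 tested metabolism and translation genes, 23 (71.9%) were called higher and 5 lower in rNCSC, against 40.2% and 33.1% of all genes tested. The median log2 difference of this list was 1.06. Shmt1, a one-carbon enzyme, was 11.7-fold higher (9.07, 9.13 and 9.30 against 5.99, 5.52 and 5.34, limma adjusted p = 6.4e-06). The transferrin receptor gene Tfrc was 10.6-fold and Ppat, the first committed enzyme of purine synthesis, 8.56-fold higher. A second Ppat probe set differed by 1.04, and with the mean of probe sets the log2 differences were 1.42 for Ppat and 1.08 for Tfrc, in place of 3.10 and 3.41. Of the 5 lower genes, the glucose transporter gene Slc2a1 was at 10.76, 11.30 and 10.78 in rNCSC and 14.13, 13.63 and 13.61 in pNCSC, 7.18-fold higher in pNCSC (limma adjusted p = 3.2e-05). Pkm, pyruvate kinase, was 2.73-fold, the NAD synthesis gene Nampt 2.22-fold and lactate dehydrogenase Ldha 1.76-fold higher in pNCSC, and Tert at least 1.25-fold. Tert was under 4 on all rNCSC arrays and entered the test only through pNCSC, where it was near the limit. Hk2, the hexokinase gene of the list, was not called (-0.39, limma adjusted p = 0.28). Odc1, ornithine decarboxylase, another textbook Myc target, had a difference of 0.63 (SE 0.29, limma adjusted p = 0.086) and was not called.

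Genes known to be repressed by Myc lay mostly the other way. Of 14 tested, 10 (71.4%) were called lower and 2 (14.3%) higher in rNCSC, against 33.1% and 40.2% of all genes tested. The median log2 difference of the 14 was -1.93, or -1.88 with dim arrays set to 4. Cdkn2b, an inhibitor of the cyclin D kinases, was at 6.15, 5.47 and 5.77 in rNCSC and 12.52, 12.25 and 12.22 in pNCSC, 92.6-fold higher in pNCSC (limma adjusted p = 5.5e-07). Cebpa, a differentiation factor of fat and myeloid cells, was higher in pNCSC by at least 35.4-fold, and the matrix glycoprotein gene Thbs1 by at least 17.4-fold. Thbs1 was uneven there, at 9.63, 7.58 and 7.16, was under 4 on all rNCSC arrays, and is not tested when a pNCSC array is left out. The cell cycle inhibitor gene Cdkn1a was 9.16-fold higher in pNCSC (limma adjusted p = 6.5e-05, chosen after its values were seen).

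The 2 genes of that list called higher in rNCSC were both cell cycle inhibitors. Cdkn1b was 4.90-fold higher (log2 difference 2.29, limma adjusted p = 0.00015). Its other tested probe set differed by 0.63, and the mean of its probe sets by 1.46. Cdkn1c was at 9.91 on rNCSC replicate 1 but 6.31 and 6.38 on replicates 2 and 3, against 5.04, 4.59 and 4.60 in pNCSC, a log2 difference of 2.79 (SE 0.94, limma adjusted p = 0.032). Without rNCSC replicate 1 it was 1.60, without rNCSC replicate 2 it was 3.40, and each of pNCSC replicates 1, 2 and 3, when left out, ended the call (limma adjusted p = 0.059, 0.085 and 0.082).

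Targets of Mondo and Mlx were called in both directions. Txnip, a glucose-induced inhibitor of glucose uptake, was at 6.35, 7.96 and 8.01 in rNCSC and 11.93, 12.27 and 11.94 in pNCSC, 24.4-fold higher in pNCSC (limma adjusted p = 0.00011). Its relative Arrdc4 was 24.6-fold higher in pNCSC (5.69, 7.30 and 6.45 against 11.10, 11.15 and 11.05, limma adjusted p = 4.8e-05). Of the 8 tested, these 2 (25.0%) were lower in rNCSC and 4 higher, with a median log2 difference of 0.56, against 40.2% higher and 33.1% lower over all genes tested. The higher genes were those of fat synthesis, Scd2 (1.84-fold), Fasn (1.77-fold), Acaca (1.70-fold) and Acly (1.28-fold). Leaving out replicate 1 or replicate 3 of either culture ended the Acaca call (limma adjusted p from 0.053 to 0.065), and the count of 4 fell to 2 without rNCSC replicate 1 or without rNCSC replicate 3.

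**Figure D4:**
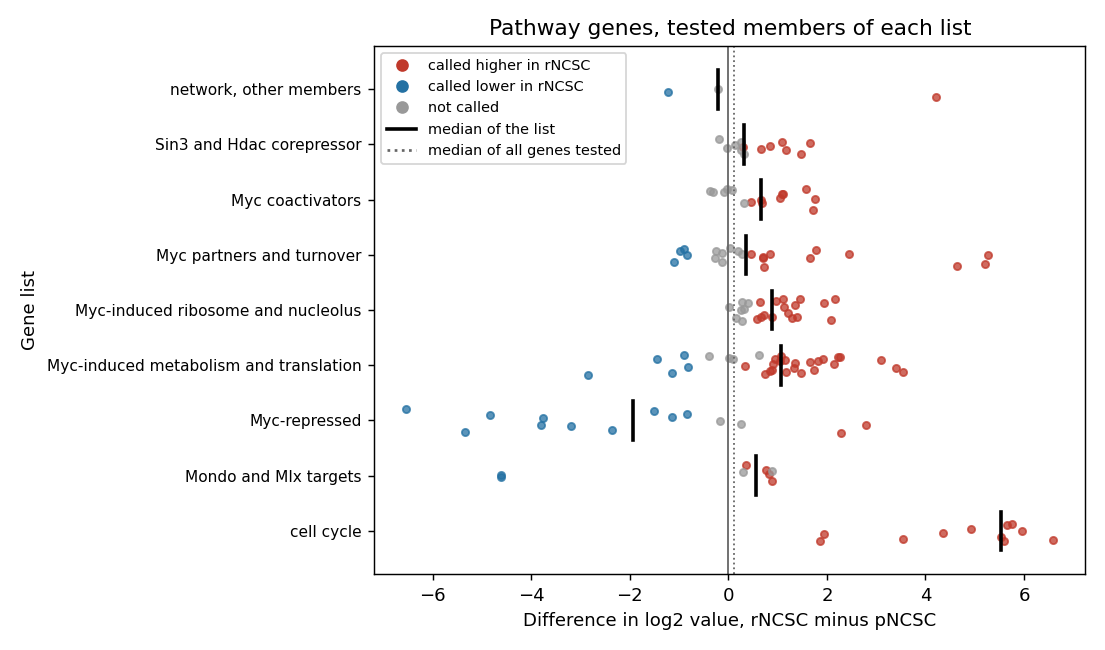
Each point is the difference in log2 value, rNCSC minus pNCSC, of a tested gene, by list, red where called higher in rNCSC, blue where called lower and grey where not called, with the list median (bar) and the median of all genes tested (dotted, 0.12). The medians are 0.88 and 1.06 for the Myc-induced lists, -1.93 for the Myc-repressed list and 5.53 for the cell cycle list.

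Division genes moved with these lists. All 11 measured cell cycle genes were called higher in rNCSC, against 40.2% of all genes tested, with a median log2 difference of 5.53. Their summed linear level was 53994 to 55051 on rNCSC arrays and 4925 to 5465 on pNCSC arrays. Bub1, a mitotic checkpoint kinase gene, was 96.1-fold, the replication helicase gene Mcm5 61.9-fold and cyclin A2 (Ccna2) 53.7-fold higher. Their part in the values of Myc, Mxd3 and the target lists was not tested, and in bulk RNA fewer cells of a type and less RNA per cell cannot be told apart.

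Markers of other cell types also differed between the cultures. Beside the calls given here, 40.2% of all genes tested were called higher and 33.1% lower in rNCSC. CNS progenitor markers summed to 62650 to 67787 on rNCSC arrays and 892 to 1385 on pNCSC arrays, with 9 of 9 measured genes reaching 4 in rNCSC and 3 in pNCSC. Mesenchyme and fibroblast markers summed to 208 to 678 in rNCSC and 69352 to 87786 in pNCSC, with 3 and 10 of 10 reaching 4. Neural crest and Schwann cell markers summed to 1776 to 2522 and 2008 to 2871, but the rNCSC sums were carried mainly by Ets1. Of 7 tested, 1 (14.3%) was called higher in rNCSC (Ets1, at 11.01, 11.26 and 10.74 against 10.25, 9.46 and 10.00) and 6 (85.7%) lower. Among the lower ones, Sox10, Ngfr, Foxd3, Snai2 and Erbb3 were under 4 on all rNCSC arrays and above it on all pNCSC arrays. These genes entered the test only through pNCSC, where they are high. Neuron markers summed to 1341 to 2869 and 732 to 1713, with Isl1 under 4 throughout. Of 5 tested, 4 (80.0%) were called higher in rNCSC and 1 (20.0%), Snap25, lower. Elavl4, Neurod1 and Nefm were under 4 on all pNCSC arrays and entered the test only through rNCSC. Elavl4 carried most of the rNCSC sums (11.15, 9.99 and 10.53 against 2.40, 2.31 and 2.29 in pNCSC). Snap25 carried most of the pNCSC sums (10.66, 9.32 and 10.09 against 6.55, 5.36 and 6.25 in rNCSC). Of the macrophage and leukocyte markers (82 to 89 against 1208 to 3208), 6 of 10 including Ptprc and Csf1r were under 4 on all arrays, and Cd14, Trem2 and Cd53 were called higher in pNCSC. Endothelial markers Pecam1, Cdh5, Kdr, Tek, Tie1 and Emcn were under 4 throughout, while that list with its mural genes summed to 104 to 118 and 24000 to 29803. Mast cell markers summed to 78 to 118 and 205 to 5607, with 3 of 9 genes (Cpa3, Mcpt4 and Cma1) called higher in pNCSC, Kit not called and the others not tested. Epithelial markers summed to 94 to 100 and 383 to 1064 over 10 genes, with Krt14, Krt15, Krt8 and Cdh1 under 4 throughout. Of the 5 tested, 4 (Krt18, Epcam, Perp and Dsp, 80.0%) were called higher in pNCSC and Krt5 was not called. Cd14, Trem2, Cd53, Cpa3, Mcpt4, Cma1, Krt18, Perp and Dsp were under 4 on all rNCSC arrays and entered the test only through pNCSC. Calls of marker genes that entered the test through only 1 culture add little to the levels given. The part of any of these cell types in the members' differences was not tested.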

How the data were processed

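Total RNA (500 ng) from passage 3 neurospheres was labelled and hybridised to Affymetrix Mouse430_2 arrays, per the labels' protocols. The deposited values are log2 and cover 45101 probe sets. The authors made them with GCRMA, per the submitters' processing notes, whose version and settings are not given in the sources used here. This method corrects background and equalises the arrays' distributions, which hides any change shared by the majority of genes. That the values are log2 was read from their range, 1.22 to 15.58, and their medians, 4.01 to 4.04. The share of probe sets at 4 or more was 50.2% to 50.6%. Arrays correlated at r = 0.988 to 0.996 within and 0.833 to 0.844 between groups. The number of arrays, 3 a group, limits the precision.

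Groups came from the titles. Of the probe sets, 34958 had 1 gene symbol, 932 had several and were not used for genes, and 9211 are unnamed here. The probe set with the highest mean stood for a gene, and genes or probe sets reaching 4 on at least 3 arrays were tested two-sided with limma 3.58.1 (lmFit, eBayes; R 4.3.3), with Benjamini-Hochberg adjustment over the whole table and a threshold of 0.05. Differences are rNCSC minus pNCSC. Folds are "at least" where an array of the lower group was under 4 and was set to 4. The fit was tested on simulated data.

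The members and lists were chosen with earlier results of these data known. Named were the members, 4 other network genes, and up to 3 genes a direction of each list with the largest called difference and no overlap. The 3 tested genes most like Myc and like Mycn were also named. Other genes, named to account for a count of 5 or fewer or as said beside them, were picked with their values known. Alternatives covered the filter, the probe set of a gene, normalization, the variance model, array weights, a replicate block and leaving out each array. Deviations of same-numbered arrays correlated at -0.04 to 0.04 and those of different-numbered arrays at -0.04 to 0.08. These values gave no sign of pairing by replicate number, but with 3 arrays a group they cannot exclude it.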

Additional observations from a re-analysis of the deposited data

How the results depend on the processing

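The calls of Myc, Mxd3, Mxd4 and Mnt kept their direction and stayed past the threshold under every alternative that tested them. Their log2 differences ran from 3.23 to 3.67 (Myc), 2.42 to 3.87 (Mxd3), -1.28 to -0.48 (Mxd4) and -1.55 to -0.77 (Mnt). Myc has no probe set with a plain ending (without s, x or a), so under that choice 1 member was called higher in place of 2. With the most variable probe set of each gene 4 were called lower in place of 2, Mxd1 (-0.57, turned from 0.13) and Mlx (-0.53) being added, and with the filter at 6, which leaves fewer probe sets, 3 member probe sets in place of 7. Values of uncalled members turned sign: Mlx with array weights (0.05, and 0.03 in the probe set fit) and, with each array left out in turn, from -0.19 to 0.04 (turned without pNCSC replicate 2), Mxd1 with each array left out, from -0.02 to 0.24 (turned without rNCSC replicate 3) and with the mean of probe sets (-0.29), and Mxi1 with that mean (-0.0004). Mxi1 was called with array weights (0.57) and without pNCSC replicate 1 (0.70). Mycl leaves the test without an rNCSC array, its bound was 18.6-fold with a floor of 3, and the mean of its probe sets differed by 1.70. With the replicate number as a block, 2 members were called higher and 2 lower, and of all genes 4445 and 3721 in place of 4717 and 3879, with no member call changed. With 1 array left out, the counts over all genes ran from 3642 to 4655 higher and 2615 to 3663 lower, partly because genes bright in 1 culture leave the test. With the mean of probe sets, Bin1 (-0.28) and Huwe1 (-0.05) were not called, and the called differences of Aurka (2.94), Skp2 (3.83), Wdr12 (1.30), Mcm5 (4.01) and Bub1 (5.64) were smaller while that of Slc2a1 (-3.53) was larger. With the most variable probe set Mycbp (-2.39), Dkc1 (2.62), Shmt1 (4.72) and Scd2 (1.99) differed more. Of the 2 Myc-repressed genes called higher, 1 was left when any of the pNCSC arrays was left out, and of the coactivators 1 was called lower without rNCSC replicate 3 and 2 with array weights. Array signal near the limit of 4 leaves Mycn, Mlxipl and 6 member probe sets without a usable difference.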

Other observations

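On rNCSC replicate 1 a Mycn probe set reached 5.07 and Cdkn1c 9.91. On that array the neural crest gene Tfap2b was at 5.37, against 2.69 and 2.52 on rNCSC replicates 2 and 3. The summed neuron markers were at 2869 against 1341 and 1962, carried mainly by Elavl4 (11.15 against 9.99 and 10.53). These values were picked after they had been seen.

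The 3 tested genes whose log2 values followed Myc most closely over the 6 arrays were Bmpr1b, Nup50 and Gpr137b-ps (Pearson r = 0.9998, 0.9996 and 0.9994). With 2 groups so far apart such values are common, and 2981 tested genes had r of 0.95 or more to Myc. For Mycn, on its probe set near the limit, they were Rlf, Tatdn1 and AI854703 (r = 0.986, 0.9797 and 0.956), and 3 genes reached 0.95.

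The E-box was also counted in the promoter windows of the pathway lists. It was found for 12 of 32 metabolism and translation genes with a window (37.5%), 2 of 7 Mondo and Mlx targets (28.6%), 2 of 11 Myc-repressed genes (18.2%), 3 of 19 ribosome and nucleolus genes (15.8%), 2 of 18 Myc partners (11.1%), 1 of 12 Sin3 and Hdac genes (8.33%), 1 of 14 coactivators (7.14%) and 0 of 10 cell cycle genes, against 11.8% of tested genes with a window. The median log2 difference with and without an E-box was 0.94 and 1.11 in the metabolism and translation list, and 1.21 and 0.88 in the ribosome and nucleolus list. It was -1.86 and 0.35 for Mondo and Mlx targets, 0.38 and 0.71 for Myc partners, and -1.33 and -2.35 for Myc-repressed genes. For Sin3 and Hdac genes it was 0.67 and 0.29, and for coactivators 0.68 and 0.47. Outside the metabolism and translation list, the medians with an E-box rest on at most 3 genes.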
